A study of Mus musculus with 8 samples.

Results

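The comparison set all 4 arrays of claudin-7 knockout intestine against all 4 arrays of wild-type intestine, with gut segment as an additive term, and asked which transcripts changed in the same direction in the small and in the large intestine. A gene counted as shared when the knockout arrays and the wild-type arrays did not overlap in either segment and the sign was the same in both. Of 19786 genes tested, 2882 met this rule (14.6%). Among these, 93 also passed the test over both segments, an adjusted p under 0.05 in limma, a linear-model tool for arrays (0.470% of the genes tested). The separation and the test use the same 8 arrays, so the one is no support for the other.

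The study profiled untreated 129SV mouse pups that were 3 days old. Wild-type pups and claudin-7 knockout pups each gave 2 samples of small and 2 of large intestine, and each sample was total RNA of an intestinal fragment on its own single-colour array. The arrays of every group carry the numbers 2 and 3, and the labels do not say which arrays came from the same pup. The additive fit treats the 4 arrays of a genotype as independent. If small and large intestine were taken from the same pups, these arrays stand for only 2 pups per genotype. P-values from 2 arrays a group reflect only how far these samples differ from each other, part of which may be technical.

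Claudin-7 is a membrane protein of epithelial cells that sits in tight junctions and, unlike most claudins, also along the basolateral membrane. Tight junctions seal the space between neighbouring cells, and the claudins in them set which ions and small solutes pass. Claudin-7 also associates with the adhesion molecule EpCAM and with integrins that hold the epithelium to its matrix.

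The 8 arrays shared 1 slide and its scan date. Since every group took up a slide column of its own, column effects cannot be told apart from those of group. The numbers 2 and 3 coincide with the 2 slide rows. The 75th percentile of the spot signal, to which each array was scaled, ran from 2642.5 to 3571.77. Levels below are log2 of the signal over that percentile, so that 0 is the 75th percentile and each unit is a doubling. The epithelial genes Epcam, Cdh17 and Vil1 were well above background on all 8 arrays, and Car1, a carbonic anhydrase of the colon, separated the large intestine (3.57 to 6.86) from the small (-4.31 to -3.44). Xist read -2.42 and -2.43 on both knockout arrays numbered 3 and was lower on the other 6, and the Y-linked Ddx3y was lowest on those same 2 arrays. Xist was itself separated upward in both segments (adjusted p = 0.289 in limma) and the Y-linked Uty downward (0.362), neither passing. A sex-linked difference on those 2 arrays can thus enter the 2882 separated genes, and its part in other genes was not tested. Alb, serum albumin, read 5.23 on knockout large intestine array 2 and -8.38 to -4.53 elsewhere. Without both knockout arrays numbered 3, 5 genes passed over both segments, and without knockout large intestine array 2, 49 did. The pancreatic amylase gene Amy2a5 read 2.30 on wild-type large intestine array 2 and 2.05 on knockout large intestine array 3, and -9.21 to -3.86 elsewhere. The mean level of 19 pancreas genes was 0.75 and 0.72 on those arrays and -4.07 to -2.43 elsewhere, with 2 of the 19 separated upward and 0 downward. Their summed signal, in units of the array's 75th percentile, was 159 and 161 in wild-type and 167 and 217 in knockout large intestine and 26.2 to 46.4 in the small. The sum did not follow the mean level. On wild-type large intestine arrays 2 and 3 it was 161 and 159, with means of 0.75 and -2.43. The list includes Zg16 and Reg1, which are also on the goblet and Paneth cell lists used below, so the sum is not a measure of pancreas RNA alone. In bulk tissue, fewer cells of a type and less RNA per cell cannot be told apart.

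The targeted gene was read first. Cldn7 stood at 5.89 and 5.93 in wild-type and 2.21 and 0.94 in knockout small intestine. In the large intestine it stood at 5.70 and 5.56 in wild type and 2.08 and 2.16 in the knockout. The lowest wild-type array lay more than 3 log2 units above the highest knockout array. Cldn7 fell by 3.93 ± 0.30 over both segments (log2 ± standard error, 4 arrays per genotype, 15.2-fold, adjusted p = 0.00976). Its single probe is on chromosome 11, from 69781255 to 69781314 in build mm9. The sources used here do not place it inside or outside the deleted part. The call was lost without wild-type large intestine array 2 (adjusted p = 0.0511) or 3 (0.0631), and without both wild-type arrays numbered 2 (0.206) or both numbered 3 (0.13), the range over all alternatives being 0.00196 to 0.206.

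Of the 93 genes, 58 were higher in the knockout (0.293% of the genes tested) and 35 lower (0.177%). Measured in both genotypes, the rises ran from 1.08 (Fcgr3) to 5.06 (Hp) and the falls from -0.88 (D17Zt10e) to -4.62 (Il22ra2). The first set held the neutrophil chemokine genes Cxcl1, Cxcl2 and Cxcl5, the myeloid receptor genes Clec4e and Marco, and the epithelial genes Retnlb and Sprr1a. The second held Cldn7, the suckling-type enterocyte gene Mcoln3, the ileal hormone gene Fgf15, the stem cell receptor gene Lgr5 and the ligand gene Shh. All 93 passed in the small intestine alone, where 1986 genes passed (10%), and 17 passed in the large intestine alone, where 61 did (0.308%). The change was larger in the small intestine for 51 of the 93 and in the large intestine for 42. None of the 93 passed the limma test of a difference between the segments, which 28 genes passed (0.142%), and 11 of the 93 had an unadjusted p under 0.05 there. The additive fit counts a difference between the segments as residual spread, and the rule asks for the same sign in both. Genes with a large difference could thus hardly enter the 93, and their absence from the 28 is no support for equal changes. A difference that misses the threshold is not shown to be absent.

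The calls leaned on single arrays. Genes whose arrays do not overlap stay separated with the same sign when an array is left out, so only the test was read from the 8 fits that left out 1 array each. The number of genes that passed was 1 without wild-type large intestine array 3 and 3 without wild-type large intestine array 2. It was 18 without wild-type small intestine array 2 and 18 without knockout large intestine array 3, 39 without knockout small intestine array 3, 49 without knockout large intestine array 2, 54 without wild-type small intestine array 3 and 55 without knockout small intestine array 2. Among the 93, 1 gene passed in all 8 of these fits, 2610507I01Rik, and Pla2g2a and Retnlb passed in 7. At the edge of the threshold, Shh lay just inside (adjusted p = 0.0497) and Gm2562 and Tmem190 just outside (0.0504). In all, 437 genes had an adjusted p under 0.1, and all 437 were separated in both segments.

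**Figure D1:**
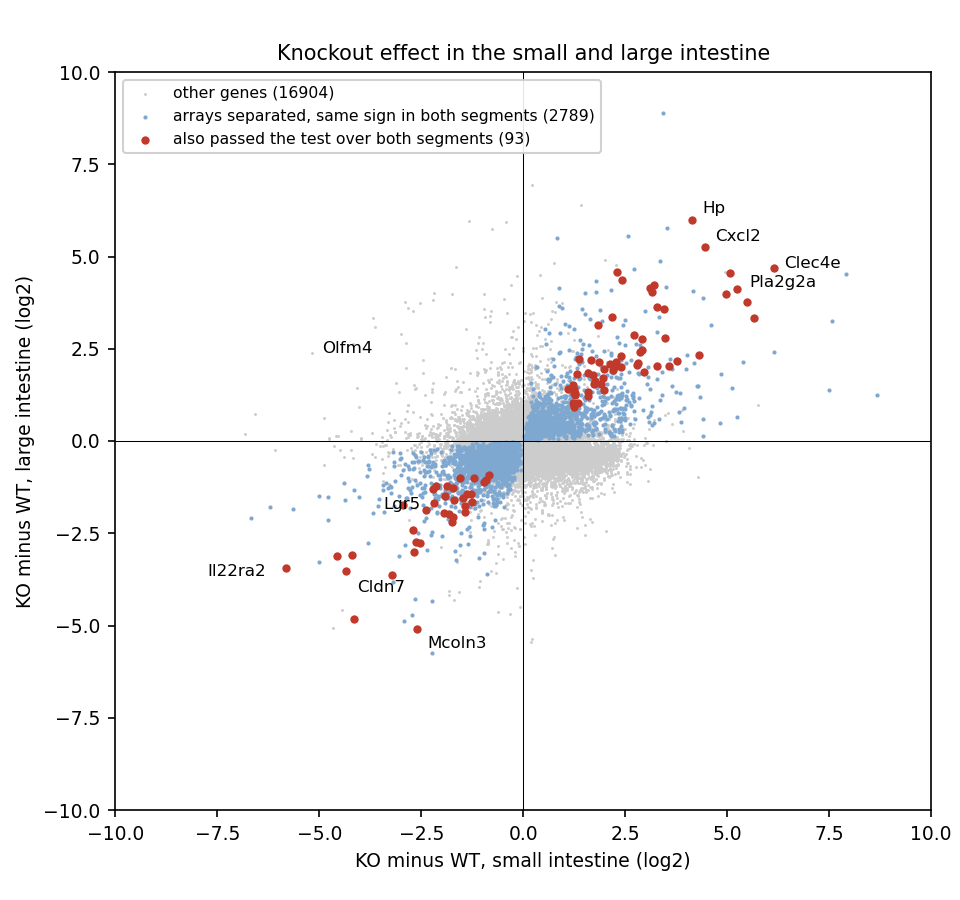
Knockout minus wild type of each gene (log2) in the small intestine (x axis) and in the large intestine (y axis). Red points are the 93 genes that passed over both segments, blue points the other 2789 genes whose arrays were separated with the same sign in both, grey points the remaining 16904; the red points lie at the upper right and lower left, and Olfm4 is labelled as a gene with opposite signs, whose wild-type large intestine arrays were not well above background.

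The genes that bring neutrophils into tissue were higher on the knockout arrays of each segment. Cxcl1, Cxcl2 and Cxcl5 encode ligands of the neutrophil chemokine receptor CXCR2. Cxcl1 read -4.74 and -3.95 in wild-type and -1.23 and -1.62 in knockout small intestine, and -2.79 and -2.65 in wild-type and -0.60 and 0.70 in knockout large intestine. Knockout and wild type were more than 2 log2 units apart at their nearest arrays in either segment. Cxcl1 rose by 2.84 ± 0.32 (7.18-fold, adjusted p = 0.0233). Cxcl5 read -3.68 and -2.82 against -0.22 and 0.62 in the small intestine and -1.45 and -2.53 against 1.14 and 2.04 in the large (wild type against knockout). It rose by 3.51 ± 0.36 (11.4-fold, adjusted p = 0.0174), by 3.45 in the small and 3.58 in the large intestine. Cxcl2 was not well above background on any wild-type array and was so on all 4 knockout arrays, which read -3.49 and -5.19 in the small and -5.53 and -2.66 in the large intestine. It was at least 7.21-fold higher in the knockout (adjusted p = 0.0409). For such a bound the knockout mean is divided by a wild-type mean in which any array's reading under the dimmest signal well above background is raised to that signal.

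Cxcl1 and Cxcl2 lie side by side in the genome and their promoters are shown here because both hold the same match to a kappaB motif, the site bound by NF-kappaB factors. The 250 bases before each gene's start (RefSeq, build GRCm38.p6) lie at chr5:90890995-90891244 for Cxcl1 and chr5:90903649-90903898 for Cxcl2, both on the plus strand. The capitals mark the match to the motif, written as GGGA, any base, then TTTCC, and searched on both strands, which begins 71 bases before the start of Cxcl1 and 97 bases before that of Cxcl2.
Cxcl1: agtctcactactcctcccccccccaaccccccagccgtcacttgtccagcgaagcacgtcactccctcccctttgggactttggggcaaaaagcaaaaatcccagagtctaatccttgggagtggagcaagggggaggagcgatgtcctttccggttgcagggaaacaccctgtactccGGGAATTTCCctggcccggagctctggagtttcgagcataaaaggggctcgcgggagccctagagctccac
Cxcl2: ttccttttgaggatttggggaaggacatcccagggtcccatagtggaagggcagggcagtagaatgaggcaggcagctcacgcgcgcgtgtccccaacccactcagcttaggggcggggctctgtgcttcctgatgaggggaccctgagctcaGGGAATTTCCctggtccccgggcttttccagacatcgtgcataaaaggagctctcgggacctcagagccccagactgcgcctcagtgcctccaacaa
The table of promoters held 38 of the 58 genes that rose, and these 2 were the only ones among the 38 with this motif (5.26%). The motif was found in 69 of the 14246 promoters of all genes tested (0.484%) and in 0 of the 21 promoters of genes that fell. The AP-1 motif TGANTCA lay in 15.8% of the promoters of risen genes, 9.52% of those of fallen genes and 6.39% of all. For the other motif searched, the CEBP motif TTGCNNAA, these shares were 18.4%, 9.52% and 9.88%. A match is a description of these letters and was not tested as a binding site.

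Among the other chemokine genes, Ccl7, which attracts monocytes, rose by 2.66 ± 0.33 (adjusted p = 0.0318). It read -4.42 and -5.04 in wild-type and -1.18 and -1.73 in knockout small intestine, and -2.71 and -2.96 in wild-type and -1.16 and -0.44 in knockout large intestine. Of 23 chemokine genes measured, 7 were separated upward in both segments (30.4%, against 5.85% of all genes tested) and 2 downward (8.7%, against 8.71%), and 4 passed, all up. The median change of the 23 was 0.45, against -0.01 over all genes tested. Ccl2 (2.05 ± 0.44, adjusted p = 0.0952), Ccl11 (-1.06 ± 0.17, adjusted p = 0.0515), an eosinophil chemokine, and Cxcl3 (adjusted p = 0.117) did not pass. Cxcl3 was not well above background on any wild-type array and was at least 4.57-fold higher in the knockout.

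The cytokine list had 11 of 26 members separated upward (42.3%, against 5.85% of all genes) and 1 downward, with 4 passing up and 1 down and a median of 0.70. Tnf, the inflammatory cytokine, read -4.61 and -4.77 in wild-type and -2.62 and -3.46 in knockout small intestine, and -4.23 and -3.65 in wild-type and -2.05 and -1.44 in knockout large intestine. The knockout arrays were the higher in each segment, and Tnf rose by 1.92 ± 0.27 (adjusted p = 0.0472). Il1rn, which blocks the interleukin-1 receptor, rose by 2.82 ± 0.42 (adjusted p = 0.0488), from -5.96 and -6.32 to -3.19 and -1.93 in the small intestine and from -2.59 and -2.94 to -1.12 and -0.32 in the large. Il1rl1, the receptor of interleukin-33, rose by 2.35 ± 0.23 (adjusted p = 0.0174). Its wild-type arrays read -1.77 to -0.72 and its knockout arrays 1 to 1.88 over both segments. Osmr, the oncostatin M receptor, rose by 1.41 ± 0.17 (adjusted p = 0.0318).

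Members of the same list that were separated without passing included Il6 (2.90 ± 0.52, adjusted p = 0.0685) and Il1b (2.29 ± 0.43, adjusted p = 0.073). Rel, an NF-kappaB family gene, was well above background on no wild-type array and on 3 of 4 knockout arrays and was at least 1.71-fold higher (adjusted p = 0.0488). Il20ra, a receptor chain for cytokines of the interleukin-20 family, rose by 2.10 ± 0.25 (adjusted p = 0.0272), with neither wild-type small intestine array well above background and the rise there at least 2.98-fold. Csf2rb2, a receptor chain for interleukin-3, rose by 1.24 ± 0.18 (adjusted p = 0.0488). Rel, Il20ra and Csf2rb2 were chosen after their values were seen. With 1 array left out, the adjusted p of the chemokine and cytokine genes that rose reached 0.0777 (Il1rl1) to 0.147 (Il1rn).

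The opposite direction was seen for Il22ra2, which encodes the soluble protein that binds and neutralises interleukin-22. It read -1.01 and 0.08 in wild-type and -6.48 and -6.06 in knockout small intestine, and -2.71 and -1.23 in wild-type and -4.37 and -6.44 in knockout large intestine. The gap between nearest arrays was wide in the small intestine and smaller in the large. Il22ra2 fell by 4.62 ± 0.68 (24.6-fold, adjusted p = 0.0488), and the adjusted p reached 0.144 with 1 array left out.

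**Figure D2:**
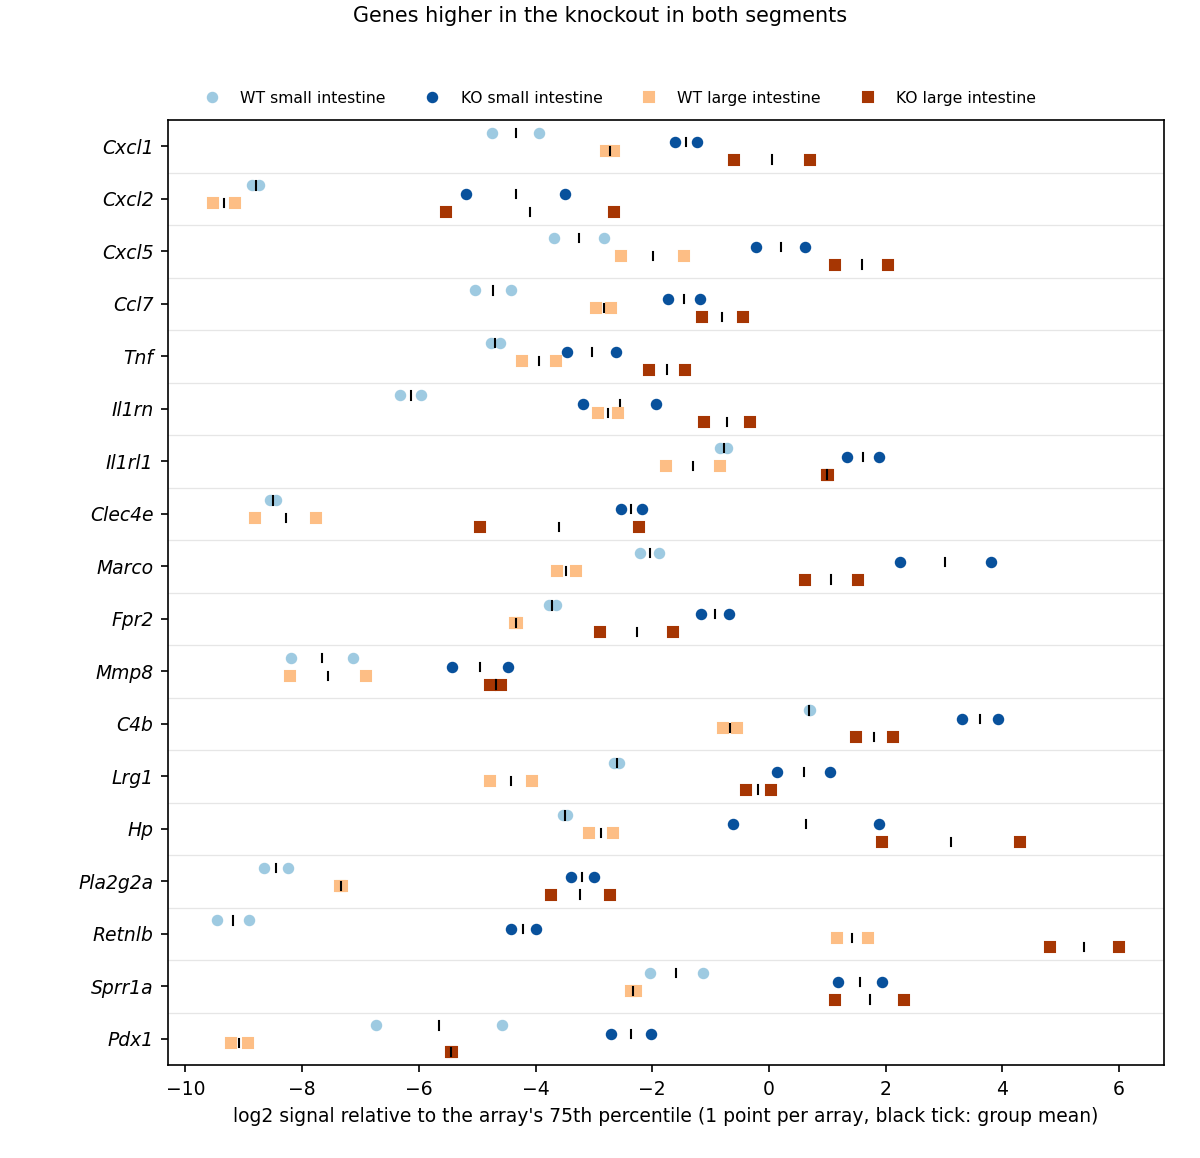
Levels of 18 genes that were higher in the knockout, as log2 signal relative to the 75th percentile (x axis), with 1 point per array and a black tick at each group mean. In each row the dark knockout points lie to the right of the light wild-type points of the same segment, for example Cxcl5 at -0.22 and 0.62 against -3.68 and -2.82 in the small intestine.

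Receptors of myeloid cells formed the next group. Clec4e encodes Mincle, a lectin that senses microbial glycolipids and dying cells. It was not well above background on any wild-type array and read -2.54 and -2.18 in knockout small and -4.96 and -2.23 in knockout large intestine, at least 17.01-fold higher (adjusted p = 0.0242). Marco, a scavenger receptor of macrophages, read -1.88 and -2.21 against 2.24 and 3.80 in the small intestine and -3.31 and -3.64 against 0.61 and 1.52 in the large. The genotypes lay about as far apart in both segments, and Marco rose by 4.80 ± 0.38 (27.9-fold, adjusted p = 0.00976). The formyl peptide receptor genes Fpr1 and Fpr2, which guide phagocytes to bacterial peptides, rose by 2.64 ± 0.38 (adjusted p = 0.0472) and 2.42 ± 0.31 (adjusted p = 0.0326).

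Fpr2 read -3.65 and -3.77 against -1.17 and -0.69 in the small intestine and -4.35 and -4.31 against -2.89 and -1.65 in the large. Clec7a, the beta-glucan receptor dectin-1, rose by 1.56 ± 0.20 (adjusted p = 0.0326), and its neighbour in function Clec4n, or dectin-2, by 1.45 ± 0.16 (adjusted p = 0.0239). Lyz2, the lysozyme of myeloid cells, rose by 1.70 ± 0.19 (adjusted p = 0.0246), and Fcgr3, a receptor for immunoglobulin G, by 1.08 ± 0.15 (adjusted p = 0.0472). Gpnmb, a glycoprotein of macrophages, rose by 2.96 ± 0.37 (adjusted p = 0.0318). Clec4n and Gpnmb were chosen after their values were seen. Without 1 array the adjusted p of these myeloid genes reached 0.0631 (Marco) to 0.144 (Fpr1).

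In the macrophage list, 11 of 22 members were separated upward (50%, against 5.85% of all genes) and 1 downward, 4 passed and the median was 0.68. The median was 0.98 in the small and 0.30 in the large intestine. The complement C1q genes C1qa (0.81 ± 0.14, adjusted p = 0.0693) and C1qb (0.79 ± 0.15, adjusted p = 0.0765) were separated upward without passing. The pan-macrophage gene Adgre1 had a value of 0.79 ± 0.25 (adjusted p = 0.214). Summed over the list, the signal in units of the array's 75th percentile was 106 to 124 in wild-type and 103 to 148 in knockout small intestine, which overlap. In the large intestine it was 44.7 to 46.2 in wild type and 51.2 to 53.5 in the knockout. The sum over all genes tested was also higher there, at 124000 to 126000 in wild type and 131000 to 145000 in the knockout.

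The neutrophil list had 8 of 20 members separated upward (40%, against 5.85% of all genes) and 0 downward, with a median of 1.52. The 3 that passed were Fpr1, Fpr2 and Mmp8, the collagenase stored in neutrophil granules. Mmp8 read -7.12 and -8.19 in wild-type and -5.43 and -4.47 in knockout small intestine, and -6.90 and -8.20 in wild-type and -4.78 and -4.59 in knockout large intestine. It rose by 2.79 ± 0.38 (adjusted p = 0.0436), and since neither wild-type small intestine array was well above background the rise there was at least 3.83-fold. S100a8 (2.80 ± 0.46, adjusted p = 0.0558) and S100a9 (2.56 ± 0.43, adjusted p = 0.0593), the subunits of calprotectin, missed the threshold. Of the granule genes made in the bone marrow, Elane (0.22 ± 0.18, adjusted p = 0.614) and Ngp (1.53 ± 1.30, adjusted p = 0.621) were not separated. The summed signal of the list was 32.2 to 38.3 in wild-type and 38.4 to 44.9 in knockout small intestine, and 36.5 to 38.4 in wild-type and 63.6 to 71.7 in knockout large intestine. How much of the rise of single genes came with more such cells was not tested.

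Cstdc5 (2.48 ± 0.34, adjusted p = 0.0437) and Stfa2l1 (2.77 ± 0.38, adjusted p = 0.0436), from a cluster of near-identical stefin genes that inhibit cysteine proteases, both rose. So did Bcl2a1d (1.29 ± 0.13, adjusted p = 0.0174) and Bcl2a1c (1.32 ± 0.18, adjusted p = 0.0442), copies of a gene that protects blood cells from apoptosis. Within each of these families a probe can read its copies too, so which copy changed is uncertain. These 4 genes were chosen after their values were seen.

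Lymphocyte genes had values below 0 for the most part, and none passed. Of 22 T and NK cell genes, 6 were separated downward (27.3%, against 8.71% of all genes), 1 was separated upward and 0 passed over both segments in limma (11 downward and 0 upward at an unadjusted p under 0.05), with a median of -0.72. The T cell receptor chain gene Cd3g (-1.68 ± 0.53, adjusted p = 0.206) and Cd5 (-1.12 ± 0.27, adjusted p = 0.117) were among the 6. The B and plasma cell list had 3 of 15 separated downward, 0 passing (9 downward at an unadjusted p under 0.05) and a median of -0.88. The T and NK cell median was -1.23 in the small and -0.28 in the large intestine.

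Among genes of secreted defence and the acute phase, Hp, Lrg1, C4b, Pla2g2a and Retnlb rose. Hp encodes haptoglobin, which binds free haemoglobin and is made mainly by the liver. It read -3.46 and -3.53 in wild-type and -0.61 and 1.89 in knockout small intestine, and -2.68 and -3.08 in wild-type and 4.30 and 1.94 in knockout large intestine. The highest of these values was on the array that also carried the high Alb reading. Summed over 16 hepatocyte genes measured, the signal was 391 on that array, 51.8 to 73.4 on the other large intestine arrays and 106 to 189 on those of the small intestine, in units of the 75th percentile, and 2 of the 16 were separated upward. Its part in the rise of Hp was not tested. Hp rose by 5.06 ± 0.73 (33.5-fold, adjusted p = 0.0472), and without that array the value was 4.41 (adjusted p = 0.0571, in a range of 0.0106 to 0.35 over the alternatives). Lrg1, a leucine-rich glycoprotein of the acute phase, rose by 3.72 ± 0.32 (13.2-fold, adjusted p = 0.0106). It read -2.56 and -2.66 against 0.14 and 1.05 in the small intestine and -4.78 and -4.05 against -0.40 and 0.03 in the large, so that the knockout arrays of both segments ended near the same level.

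C4b, complement component 4, read 0.70 and 0.68 against 3.3 and 3.92 in the small intestine and -0.78 and -0.55 against 2.12 and 1.49 in the large. It rose by 2.70 ± 0.22 (6.49-fold, adjusted p = 0.00982). The complement list had 9 of 20 members separated upward (45%, against 5.85% of all genes) and 1 downward, with 1 passing and a median of 0.71. The acute-phase list had 9 of 23 separated upward (39.1%, against 5.85%), 0 downward, 1 passing and a median of 1.40. Its members Saa1 (1.65 ± 0.43, adjusted p = 0.137) and Lbp (1.74 ± 0.32, adjusted p = 0.0715) did not pass. Among serpins, whose paralogs may share probe signal, Serpina3f rose by 1.72 ± 0.19 (adjusted p = 0.021) and Serpina3i by 2.20 ± 0.33 (adjusted p = 0.0489); both were chosen after their values were seen. Without 1 array the adjusted p reached 0.0631 for Lrg1 and for C4b.

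Pla2g2a encodes a secreted phospholipase that kills Gram-positive bacteria and is a product of Paneth cells. Only its RNA was read here, and whether these pups make an active enzyme was not tested. It was not well above background on any wild-type array and read -3.40 and -3 in knockout small and -3.74 and -2.72 in knockout large intestine. The 4 knockout arrays thus lay within about 1 log2 unit, and the gene was at least 14.4-fold higher (adjusted p = 0.00976). Retnlb, a resistin-like protein of goblet cells, read -9.46 and -8.91 in wild-type and -4.43 and -4 in knockout small intestine. In the large intestine, its normal site, it read 1.69 and 1.16 in wild type and 4.81 and 5.99 in the knockout. It rose by 4.48 ± 0.35 (adjusted p = 0.00976). The rise was at least 6.68-fold in the small intestine, where wild type was not above background, and 3.98 ± 0.44 on the log2 scale in the large (adjusted p = 0.0335).

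Of 14 genes of Paneth cells and antimicrobial proteins, 5 were separated upward (35.7%, against 5.85% of all genes), 0 downward and 1 passed, with a median of 1.34. Lyz1, the Paneth lysozyme, had a value of 2.25 ± 0.37 (adjusted p = 0.0554) and Mmp7, the protease that activates defensins, one of 2.27 ± 0.52 (adjusted p = 0.111). In the goblet cell list Retnlb was the only one of 22 to pass, 2 members were separated upward and 4 downward (18.2%, against 8.71% of all genes), and the median was -0.38. Atoh1, the factor that specifies secretory cells, was one of the 4 (-1.21 ± 0.27, adjusted p = 0.107), and the mucin gene Muc2 was not separated (-0.36 ± 0.25, adjusted p = 0.551). Wfdc21, a small protein with a whey acidic protein fold, rose by 3.63 ± 0.45 (adjusted p = 0.0318).

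The repair and fetal-type list gathers genes of injured and regenerating epithelium. All 19 measured members had values above 0, 14 were separated upward (73.7%, against 5.85% of all genes) and 0 downward, and the median was 1.15 (1.25 in the small, 0.99 in the large intestine). Of these, 2 passed, among them Il1rn. Further members were separated without passing, including the epidermal growth factor receptor ligands Areg (1.52 ± 0.26, adjusted p = 0.0633) and Ereg (2.41 ± 0.41, adjusted p = 0.0596), the annexin Anxa1 (1.54 ± 0.40, adjusted p = 0.135) and Ly6a (2.14 ± 0.45, adjusted p = 0.0912).

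Sprr1a, a small proline-rich protein of the cornified envelope, rose by 3.60 ± 0.37 (12.1-fold, adjusted p = 0.0174). It read -2.05 and -1.13 against 1.94 and 1.19 in the small intestine and -2.37 and -2.27 against 1.14 and 2.31 in the large. The keratin genes Krt20 (2.16 ± 0.18, adjusted p = 0.00982), of mature surface epithelium, and Krt36 (3.13 ± 0.47, adjusted p = 0.0488) rose as well, as did Emp1, an epithelial membrane protein (1.26 ± 0.19, adjusted p = 0.0488). Krt20 read 3.92 to 4.14 on the 4 wild-type arrays and 5.94 to 6.52 on the 4 knockout arrays. Krt20, Krt36 and Emp1 were chosen after their values were seen. In the list of metalloproteinases and their inhibitors all 22 members had values above 0 over both segments, and 8 were separated upward (36.4%, against 5.85% of all genes). Mmp8 was the only one to pass. The median was 0.49, with 1.25 in the small and 0.15 in the large intestine. Mmp10 (2.71 ± 0.43, adjusted p = 0.0535), Timp1 (1.70 ± 0.34, adjusted p = 0.083) and Mmp3 (adjusted p = 0.12) did not pass. Mmp3 was not well above background on any wild-type array and was at least 9.56-fold higher in the knockout. With 1 array left out, the adjusted p of Sprr1a reached 0.0965.

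Pdx1, the homeobox factor of pancreas and duodenum, was the only member of the gut identity list to pass. It read -4.58 and -6.73 in wild-type and -2.03 and -2.72 in knockout small intestine, and -8.92 and -9.22 in wild-type and -5.44 and -5.45 in knockout large intestine. It rose by 3.46 ± 0.44 (adjusted p = 0.0326), with wild-type large intestine not above background and the rise there at least 3.33-fold. The identity list as a whole had 1 of 21 members separated each way and a median of -0.50. Fabp6, the bile acid-binding protein of the ileum, read -5.81 and 1.72 in wild-type and -7.38 and 1.46 in knockout small intestine, low on both arrays numbered 2 and high on both numbered 3. Its part in the change of Pdx1 was not tested.

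Transport and hormone-response genes completed the rises. Slc13a3, a dicarboxylate transporter, rose by 4.49 ± 0.58 (adjusted p = 0.0349), from -5.61 and -5.19 to -0.74 and 1.25 in the small intestine and from -4.22 and -4.11 to -0.85 and -0.82 in the large. Clca4a, a secreted regulator of chloride transport, rose by 3.44 ± 0.51 (adjusted p = 0.0488), by 2.31 in the small and 4.57 in the large intestine. Slc25a48, a mitochondrial carrier, was well above background on no wild-type array and on 3 of 4 knockout arrays and was at least 3.04-fold higher (adjusted p = 0.0488). Gml, a membrane-anchored protein of the Ly6 family, rose by 4.62 ± 0.53 (24.6-fold, adjusted p = 0.0259). Zbtb16, a zinc finger factor induced by glucocorticoids, read -1.75 and -2.86 against 1.82 and 2.18 in the small intestine and -1.93 and -2.36 against 0.37 and 0.00 in the large. It rose by 3.32 ± 0.45 (9.96-fold, adjusted p = 0.0436). Of the 20 glucocorticoid-response genes, 6 were separated upward (30%, against 5.85% of all genes) and 3 downward (15%, against 8.71%), only Zbtb16 passed, and Fkbp5 had a value of 1.49 ± 0.27 (adjusted p = 0.0703). Without 1 array the adjusted p of these genes reached 0.103 (Gml) to 0.144 (Clca4a).

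Among the 35 genes that fell, those of the suckling-type enterocyte and of nutrient uptake included Mcoln3, Fgf15, Slc34a3 and Slc7a8. Enterocytes of the newborn take up milk proteins whole and digest them in large lysosomes. Mcoln3, a cation channel of these endosomes and lysosomes, read 3.69 and 3.81 in wild-type and 1.18 and 1.14 in knockout small intestine, and -1.14 and -1.35 in wild-type and -7.25 and -5.45 in knockout large intestine. It fell by 3.85 ± 0.58 (14.4-fold, adjusted p = 0.0489). Mcoln3 was well above background on 1 of 2 knockout large intestine arrays, so the size of its fall there is uncertain. Fgf15, the ileal hormone that restrains bile acid synthesis in the liver, read 0.59 and 1.47 against -3.73 and -2.60 in the small intestine and -3.97 and -3.36 against -7.33 and -6.15 in the large. It fell by 3.64 ± 0.43 (12.5-fold, adjusted p = 0.0272), with 1 of 2 knockout large intestine arrays well above background. The part of the Fabp6 difference between arrays in this fall was not tested.

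Of 17 genes of the suckling list, 5 were separated downward (29.4%, against 8.71% of all genes), 0 upward and 2 passed, and 1 of the 17 had a value above 0. The endocytosis genes Amn (-1.67 ± 0.44, adjusted p = 0.143), Cubn (-1.20 ± 0.46, adjusted p = 0.284) and Dab2 (-0.89 ± 0.18, adjusted p = 0.086) were separated without passing. The median was -0.53, with -0.55 in the small and -0.20 in the large intestine. Without 1 array the adjusted p reached 0.146 for Mcoln3 and 0.107 for Fgf15.

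Carriers and enzymes came next. Slc34a3, a sodium-phosphate cotransporter, fell by 2.64 ± 0.38 (adjusted p = 0.0472), from 3.85 and 4.26 to 2.47 and 0.58 in the small intestine and from -3.49 and -3.26 to -6.00 and -6.26 in the large. Slc7a8, an exchanger of neutral amino acids, fell by 1.89 ± 0.28 (adjusted p = 0.0488), from 2.42 to 3 on the wild-type arrays to 0.34 to 1.55 on the knockout arrays of both segments. Ces1c, a carboxylesterase, fell by 2.85 ± 0.29 (adjusted p = 0.0174) and Dnase1, a secreted nuclease, by 2.56 ± 0.31 (adjusted p = 0.0272). Pla2g1b, the pancreatic-type phospholipase, fell by 1.93 ± 0.19 (adjusted p = 0.0174) and was at least 2.86-fold lower in the small intestine, where no knockout array was above background. Xpnpep2, a membrane aminopeptidase chosen after its values were seen, fell by 1.65 ± 0.24 (adjusted p = 0.0472). Of 22 brush border and digestion genes, 3 were separated downward (13.6%, against 8.71% of all genes), 1 upward (4.55%, against 5.85%) and 0 passed over both segments in limma (4 downward and 1 upward at an unadjusted p under 0.05). The member separated upward was the enteropeptidase gene Tmprss15 (4.45 ± 1.36, adjusted p = 0.191), well above background on 1 of 4 wild-type and 2 of 4 knockout arrays. The trehalase gene Treh had a value of -2.04 ± 0.33 (adjusted p = 0.0524) and was well above background on 2 of 4 knockout arrays. With 1 array left out the adjusted p of the genes that fell here reached 0.0843 (Pla2g1b) to 0.144 (Slc34a3).

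Lgr5, the Wnt-pathway receptor that marks crypt base stem cells, read 0.94 and 1.51 in wild-type and -1.17 and -0.81 in knockout small intestine, and 0.47 and 0.15 in wild-type and -0.91 and -1.04 in knockout large intestine. All 4 knockout arrays lay below all 4 wild-type arrays. Lgr5 fell by 1.75 ± 0.25 (3.37-fold, adjusted p = 0.0472), and in each fit that left out 1 array it did not pass (adjusted p 0.0559 to 0.142). Of 21 crypt and stem cell genes, 6 were separated downward (28.6%, against 8.71% of all genes), 0 upward and 1 passed, yet the median was -0.03, since 9 of the 21 had values above 0. The other 5 were Sox9 (-0.93 ± 0.24), Ascl2 (-0.82 ± 0.21), Rnf43 (-0.75 ± 0.20), Axin2 (-0.65 ± 0.20) and Cdca7 (-0.61 ± 0.25), with adjusted p of 0.135 to 0.303. Rnf43 and Axin2 are feedback targets of Wnt signalling, and Ascl2 is the transcription factor of stem cell identity.

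Shh, the hedgehog ligand that epithelium sends to the underlying mesenchyme, fell by 1.71 ± 0.26 (adjusted p = 0.0497). Its level was low, from -7.01 to -5.07 in wild type and -9.31 to -6.60 in the knockout. It was well above background on 3 of 4 wild-type and 1 of 4 knockout arrays. In the small intestine it was so on 1 of 2 wild-type and 0 of 2 knockout arrays, so the fall there has no measured size. In the large intestine alone the value was -1.49 ± 0.36 (adjusted p = 0.198 in limma). In the list of Wnt, BMP, Notch and hedgehog genes, 6 of 45 were separated downward (13.3%, against 8.71% of all genes) and 1 upward, with Shh the only one to pass and a median of 0.08. Ihh, the second gut hedgehog ligand, had a value of -0.75 ± 0.26 (adjusted p = 0.238). Mycn, a growth-promoting transcription factor chosen after its values were seen, fell by 1.44 ± 0.20 (adjusted p = 0.0442). Ptgdr, a receptor of prostaglandin D, fell by 1.96 ± 0.23 (adjusted p = 0.0263), from -5.01 and -5.05 to -6.36 and -7.17 in the small intestine and from -1.43 and -1.91 to -3.92 and -3.80 in the large.

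**Figure D3:**
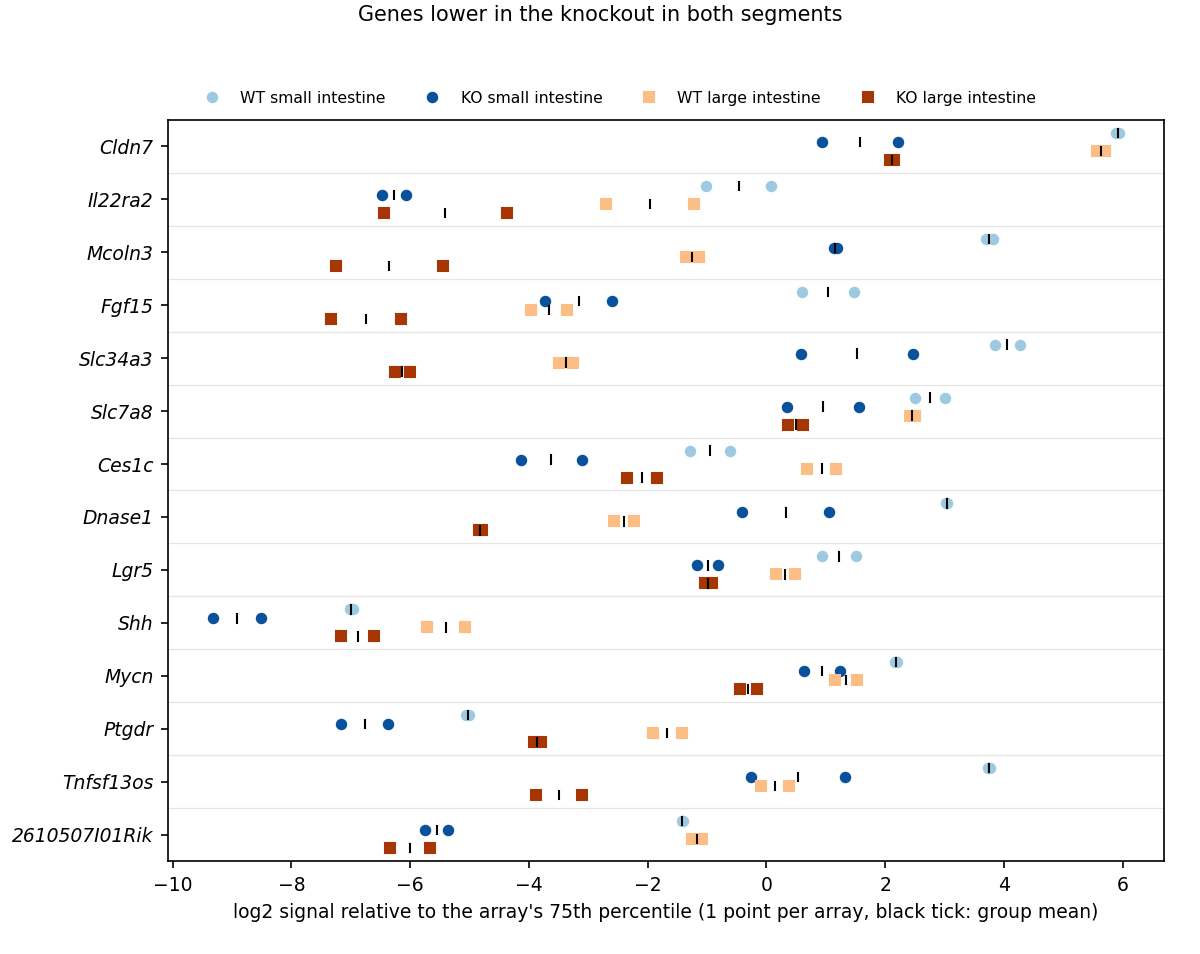
Levels of 14 genes that were lower in the knockout, as log2 signal relative to the 75th percentile (x axis), with 1 point per array and a black tick at each group mean. The dark knockout points lie to the left of the light wild-type points of the same segment in every row, as for Lgr5 at -1.17 and -0.81 against 0.94 and 1.51 in the small intestine.

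Of the 35 genes that fell, 5 lie on the chromosome of the targeted gene, Cldn7 included. Tnfsf13os, an antisense transcript at the cytokine gene Tnfsf13, has its probe 0.28 Mb before that of Cldn7, at 69504584 to 69504643 (mm9). It read 3.76 and 3.74 in wild-type and 1.32 and -0.25 in knockout small intestine, and -0.09 and 0.37 in wild-type and -3.88 and -3.10 in knockout large intestine, and it fell by 3.42 ± 0.36 (adjusted p = 0.0186). 2610507I01Rik, a non-coding transcript chosen after its values were seen, has its probe 10.77 Mb before that of Cldn7. Its wild-type arrays read -1.43 to -1.08 and its knockout arrays -6.33 to -5.36 over both segments. It fell by 4.48 ± 0.23 (22.4-fold, adjusted p = 0.00222), the smallest adjusted p of all genes tested, and in the fits without 1 array the adjusted p stayed at or below 0.0325. Drc3, also chosen after its values were seen and 9.58 Mb before Cldn7, fell by 1.40 ± 0.20 (adjusted p = 0.047) and was well above background on 2 of 4 knockout arrays. In all, 10 of the 93 genes lay on chromosome 11 (10.8%), against 7.75% of the genes tested, and 5 of the 10 rose (Rel, Ccl7, Wfdc21, Krt20 and Krt36). The share of tested genes that passed was 0.652% on chromosome 11 and higher on chromosomes 5 (0.921%), 16 (0.781%), 6 (0.775%) and 12 (0.733%).

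A few falls concern genes that were dim or have close copies. Defb29, a beta-defensin, was well above background on all 4 wild-type arrays and on no knockout array and was at least 3.50-fold lower (adjusted p = 0.00982). Pramel34 was likewise above background on the wild-type arrays alone and at least 3.82-fold lower (adjusted p = 0.013), but with outlier-flagged spots kept another of its probes stood for it and the value was 0.51 (adjusted p = 0.523, in the direction of a rise). Rpl10l, a copy of a ribosomal protein gene, was well above background on 2 wild-type arrays, both of large intestine, and was at least 1.22-fold lower (adjusted p = 0.0489). Both Pramel34 and Rpl10l belong to families with near-identical copies, so their identity is uncertain.

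The junction genes around claudin-7 showed no shared change that passed. Of 29 tight junction genes measured apart from Cldn7, 1 was separated upward and 1 downward (3.45% each, against 5.85% and 8.71% of all genes), 0 passed over both segments in limma (1 upward and 2 downward at an unadjusted p under 0.05) and the median was 0. Cldn4 read -0.94 and 1.01 against 1.45 and 1.16 in the small intestine and -0.56 and -0.20 against 0.32 and 0.74 in the large (1.09 ± 0.40, adjusted p = 0.262). Cldn15, which forms cation pores in the small intestine, had a value of -1.37 ± 0.39 (adjusted p = 0.169). Cldn8 had the largest value of the list (-1.84 ± 1.89, adjusted p = 0.685), and its level in wild-type small intestine differed between the arrays, at -5.72 and 3.57.

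Of 13 known partners of claudin-7, 4 were separated upward (30.8%, against 5.85% of all genes), 0 downward and 0 passed in limma (4 upward at an unadjusted p under 0.05). The partner Epcam itself had a value of 0.03 ± 0.27 (adjusted p = 0.967).

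Many lists that moved in the small intestine had no counterpart in the large, and 26 of the 52 lists had medians of opposite sign in the segments. The enteric neuron list had a median of 1.80 in the small and -0.37 in the large intestine, the smooth muscle list 1.5 and -0.33, and the mesothelium list 1.63 and -0.35. Among the measured members of these lists, 1 was separated with the same sign in both segments (the muscle gene Ldb3, at -0.56 ± 0.20, adjusted p = 0.257) and 0 passed over both segments in limma. At an unadjusted p under 0.05 there was 1 neuron gene upward, 1 muscle gene downward and 0 mesothelium genes. The lists with medians above 0.9 in both segments were those of neutrophils, acute-phase proteins, Paneth cell and antimicrobial proteins, and repair genes. On knockout large intestine array 2, which had the high Alb reading, the acute-phase mean level was 1.86, against 0.61 on knockout array 3. In wild-type large intestine it was -0.47 and -0.71. The neutrophil mean level was -0.25 on knockout array 2 and -1.31 on knockout array 3, against -2.53 and -3.04 in wild type. In the Paneth and repair lists knockout array 3 had the higher mean. The part of array 2 in these medians was not tested. The oxidative phosphorylation and fat absorption lists, with 23 and 20 measured members, had 0 separated in both segments.

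**Figure D4:**
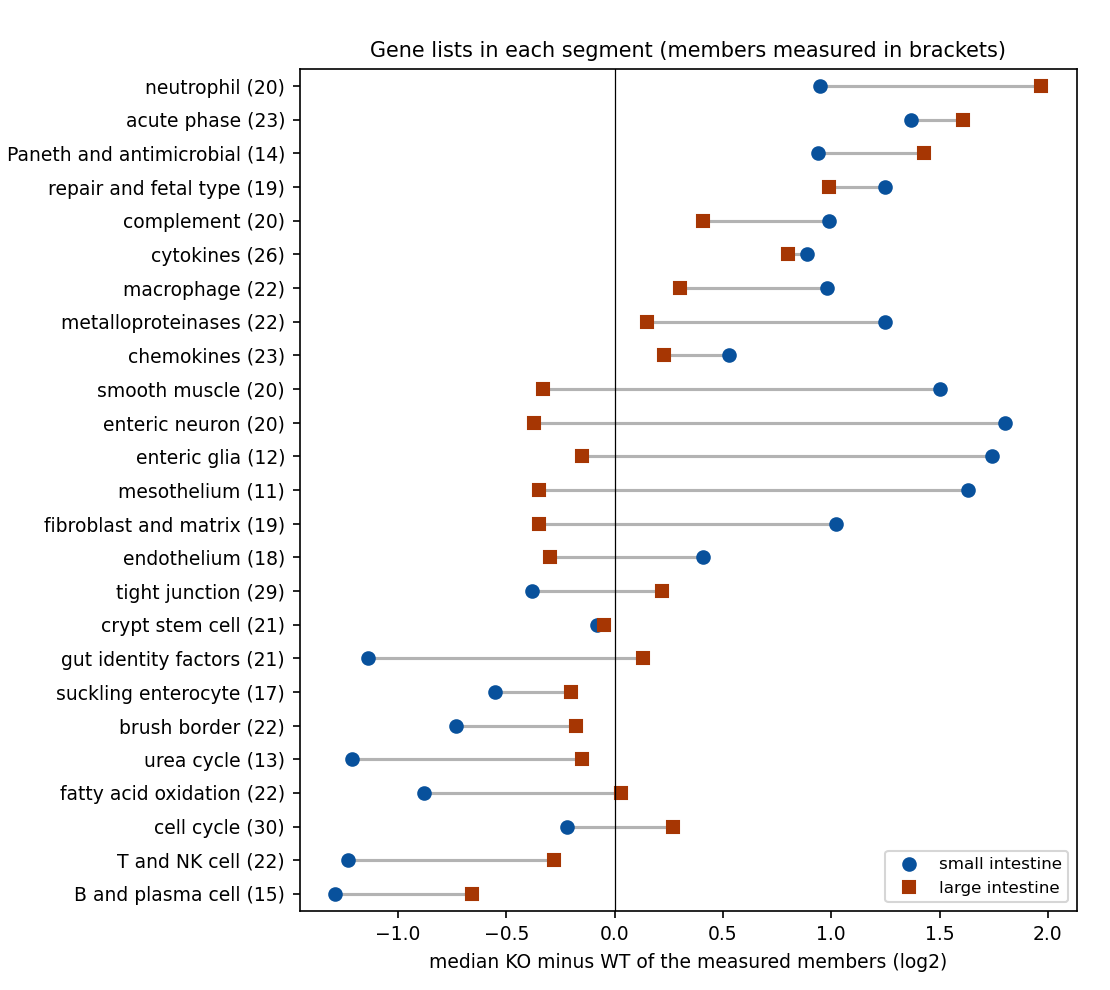
Median knockout minus wild type (log2, x axis) of 25 gene lists, with a blue circle for the small and a red square for the large intestine, and the number of measured members in brackets. The neutrophil, acute-phase, Paneth and repair lists lie above 0 in both segments, whereas the enteric neuron list lies at 1.80 in the small and -0.37 in the large intestine.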

How the data were processed

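Each of the 8 deposited array files holds spot intensity on a linear scale, which Agilent Feature Extraction 10.7.3.1 had background-corrected within the array, per the file headers. Probe coordinates are those of build mm9. The authors also deposited a table of normalized intensity values per probe (column medians 158.06 to 160.06), and how its background was treated is not known. Per the submitters' processing notes R 3.3.0 was used, and the labels record no further step.

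From these intensities log2 was taken here of the processed signal minus each array's 75th percentile over 59305 non-control spots, and replicate spots of a probe were averaged. Outlier-flagged spots (148 to 312 per array) were left out, and 302 probes were dropped for such flags. A probe stayed in if both arrays of any group read well above background. They were named by accession (26165 probes), symbol (3128) or older symbol (910) against RefSeq gene names of assembly GRCm38.p6, with the file's own name for 2146 and no gene name for 23332. The brightest of 25798 named probes stood for each of 19786 genes, and 11 of the 93 genes that passed had several probes, all moving the same way.

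Genotype and segment were fitted additively in limma 3.58.1 (R 4.3.3, with the package data.table at version 1.17.8) and 5 residual degrees of freedom, empirical Bayes moderation and Benjamini-Hochberg adjustment over all genes. Each segment and the difference between segments came from a fit with 1 mean per group (4 residual degrees of freedom). Median standard errors were 0.234 over both segments and 0.275 within a segment, a precision limited by how few arrays there are. Replicate arrays correlated across genes at 0.980 to 0.991. The fits were tested on simulated data.

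The text names Cldn7, the 15 largest rises and 15 largest falls that passed (clone and predicted names passed over), up to 5 passing members of each of 52 gene lists, the largest non-passing member of 4 lists, and the single-array checks Alb, Amy2a5 and the sex-linked genes. Other genes are further list members or were chosen after their values were seen; a few genes are not reported here. The comparison, its members and the lists (978 of 1023 genes measured) were chosen with earlier results of these data known. The alternatives changed the background correction, scaling, filters, flags, probe choice, prior, model, blocks, threshold and the arrays used.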

Additional observations from a re-analysis of the deposited data

Results flagged for a closer look

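For 2 genes the knockout effect differed between the segments in limma's test of the difference (large minus small intestine). Olfm4, a glycoprotein of crypt base cells, had a value of -5.17 in the small intestine. In the large intestine neither wild-type array and 1 of 2 knockout arrays was well above background, and it was at least 1.23-fold higher in the knockout. The fitted difference of 7.56 log2 units (adjusted p = 0.00182) takes the wild-type readings under background at face value and is no measured size. Gsdmc3, a gasdermin gene, differed by 7.01 (adjusted p = 0.0475), with -6.82 in the small and 0.20 in the large intestine.

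For 13 gene lists the mean level over the members was higher on both knockout arrays in one segment and lower on both in the other, and these differences were not tested. As the large minus the small intestine median, the difference was 1.27 for the gut identity factors, 1.09 for bile acid genes, 1.06 for the urea cycle, 1.04 for gasdermins, 0.87 for sodium and ion transport, 0.64 for detoxification and 0.60 for tight junction genes. It was negative for enteric neurons (-2.17), mesothelium (-1.98), the cells of Cajal (-1.66), fibroblasts and matrix (-1.37), Wnt, BMP and Notch genes (-0.75) and endothelium (-0.71). For the urea cycle the large intestine means hardly differed, at 0.34 on both wild-type arrays against 0.36 and 0.37 in the knockout. Its medians were below 0 in both segments (-1.21 in the small and -0.15 in the large intestine).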

How the results depend on the processing

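Leaving out arrays or changing the model cannot turn the sign of genes chosen for separated arrays. Under the alternatives that changed the values, those of the 93 that were measured kept their sign except Pramel34, at 0.51 (adjusted p = 0.523) with outlier-flagged spots kept. Requiring signal above background on all 8 arrays measured 70 of the 93. The counts moved more. Of the genes that passed over both segments and of those also separated, there were 184 and 184 with each array scaled to its median, which moved the median of all genes to 0.11 and the share of rises from 62.4% to 76.6%, 49 and 49 without a background filter, 627 and 517 with 1 mean per group, 687 and 684 with genotype and number as a random block (correlation -0.289), 40 and 31 over means of the segments, and 8 and 8 at an adjusted p under 0.01. With normexp correction 70.1% were rises. Over means of the segments by number, with 2 values against 2, 16 of the 93 passed. Without 1 array the count ran from 1 to 55. Without both knockout arrays numbered 2 it was 55 and without both numbered 3 it was 5. Without both wild-type arrays numbered 2 or 3 it was 0 in limma (1657 and 1962 at an unadjusted p under 0.05). In the small intestine (1986) the count was 482 without a background filter, 41 at an adjusted p under 0.01 and 71 to 3818 without 1 array. In the large (61) it was 102 with median scaling, 19 without a filter, 31 with signal above background on all arrays, 7 at an adjusted p under 0.01, and from 0 in limma without wild-type array 2 or 3 (1626 and 1154 at an unadjusted p under 0.05) to 87 without 1 array. For the difference between segments (28) it was 15 without a filter, 6 with signal on all arrays, 6 at an adjusted p under 0.01 and 1 to 1081 without 1 array. Of the 57 genes the naming rule selects, 46 passed, 27 with normexp correction, 29 without a filter, 14 over segment means, 0 to 23 without 1 array, 20 and 3 without both knockout arrays numbered 2 or 3, and 0 without both wild-type arrays numbered 2 or 3 (47 and 47 at an unadjusted p under 0.05). Where 1 array is left out of a group, the lone array is assumed to vary like the others. The cause of these shifts was not tested.

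With the replicate number as a block, 60 genes passed over both segments, 59 of them separated and 50 of them among the 93, with 1169 in the small and 15 in the large intestine and 28 of the 57 named genes. The numbers are not known to pair the arrays: across genes, the number 2 minus number 3 differences of the groups correlated at 0.008 to 0.264.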

Other observations

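Immediate early genes, which respond within minutes to stress or growth signals, had 8 of 26 members separated upward in both segments (30.8%, against 5.85% of all genes tested) and 0 downward, with 0 passing over both segments in limma and 9 upward at an unadjusted p under 0.05. Fosl1, a partner of Jun proteins in the AP-1 complex, had the largest value among the 8 (2.51 ± 0.41, adjusted p = 0.0558). Egr1 (1.08 ± 0.34, adjusted p = 0.203) and Fos (1.32 ± 0.43, adjusted p = 0.221) had smaller values. The list median was 0.67 in the small and 0.1 in the large intestine.

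Of 13 genes of the urea cycle and arginine synthesis, which the newborn intestine runs to make arginine, 5 were separated downward (38.5%, against 8.71% of all genes) and 0 upward. They included Otc (-1.87 ± 0.51, adjusted p = 0.155) and Oat (-0.76 ± 0.32, adjusted p = 0.328). The list median was -1.21 in the small and -0.15 in the large intestine. Of 22 genes of fatty acid oxidation and ketogenesis, 4 were separated downward (18.2%, against 8.71% of all genes) and 0 upward. Over both segments 0 passed in limma (2 downward at an unadjusted p under 0.05). The list median was -0.88 in the small and 0.03 in the large intestine.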
